A study of Saccharomyces cerevisiae with 30 samples.

Results

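The ATG genes of Saccharomyces cerevisiae, the named core of the autophagy machinery, were followed across chemically treated and untreated yeast cultures. Members were all genes whose symbol in the platform's probe-to-gene annotation is ATG followed directly by digits, with the probe set of the highest mean intensity taken for each gene. This rule found 34 of the 5449 S. cerevisiae genes that have a named probe set, and each of the 34 had 1 probe set. All 34 were among the 5429 genes tested. The symbols VPS30 (also known as ATG6) and SNX4 (also known as ATG24) fall outside the rule and are described with the pathway lists.

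All cultures were strain S288C (a laboratory haploid whose mating type is alpha), grown in synthetic medium with 2% dextrose at 30 °C and measured on Affymetrix yeast arrays, with 1 array per culture. The compounds were eupolauridine-9591 (E9591) at 0.053 µM, liriodenine methiodide (LMT) at 2.6 µM, and the metal chelators 2,2'-bipyridyl (BIPR) at 65.9 µM and 1,10-phenanthroline (PHEN) at 6.2 µM. Per the labels, each dose is the compound's own IC50, and the chelators were included as references for the response to iron shortage. At 4 h the groups were E9591, LMT, BIPR and PHEN, with a DMSO group (0.25%) for E9591, another for LMT and one that BIPR and PHEN share. These cultures had an OD600 of 0.1 at the start, received compound or DMSO at 0.2 and were collected at 0.5. At 15 h, after 4.5 doublings, the groups were E9591 and LMT at the same doses with 1 shared DMSO group. The 10 groups hold 3 biological replicate cultures each, and p-values rest on how much those cultures varied. The culture density at the 15 h harvest is not given in the sources used here, so length of exposure, density and growth stage cannot be told apart in the comparisons that involve that time.

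Autophagy is the route by which a cell wraps part of its own contents in a double membrane and delivers it to the vacuole, where it is broken down. In yeast the Atg1 kinase complex starts the process, vesicles carrying Atg9 and a lipid kinase build the membrane, conjugation systems attach Atg8 to it, and receptors choose the cargo in the selective forms. Growing cells with ample nutrients keep it low, while starvation and entry into stationary phase raise it, partly through transcription of ATG genes. The values here are messenger RNA levels in whole cultures, where fewer cells expressing a gene and less RNA per cell cannot be told apart, and no measure of autophagic activity was among them.

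The members were well measured. Of the 34 genes, 33 lay above the background floor on all 30 arrays and ATG16 did so on 29. That floor, the 95th percentile of probe sets made for another yeast species, lay at an intensity of 11.2 to 34.5 depending on the array. Replicate C of the chelators' DMSO group stood farthest from its group, with a standard deviation of the log2 difference to replicates A and B of 0.386 and 0.355 over genes. Among the 3 DMSO groups of 4 h, the members' group means spanned a median of 0.45 log2 units, a size like that of the treatment changes at 4 h below, and 32 of 34 lay within 1 unit. The exceptions were ATG15 and ATG7, both lowest in the DMSO group of the LMT experiment. Mating-type markers also moved: the summed intensity of 7 a-type genes was 5186 to 5780 with E9591 and 8629 to 9046 with LMT at 4 h, against 1165 to 1308 and 2367 to 2468 in their DMSO groups. The 4 alpha-type genes summed to 38928 to 41266 with E9591 and 18224 to 18871 with LMT at 4 h, against 43712 to 45673 and 36573 to 38504 in DMSO. At 15 h the alpha-type genes summed to 9728 to 11581 with E9591 and 22787 to 25160 with LMT, against 4030 to 4771 in DMSO, and the a-type genes to 2768 to 3713 and 771 to 938, against 1655 to 1746. What part these shifts have in the results below was not tested.

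At 4 h most ATG genes were higher in treated cultures than in DMSO, by small amounts. With E9591, 23 of the 34 rose and 0 fell, where 32% of all tested genes rose and 11.3% fell; the members' median log2 change was 0.44, against 0.09 over all tested genes. With LMT, 19 rose and 0 fell, where 40.4% of all genes rose and 25.2% fell, and the median was 0.27 against 0.10. With BIPR, 24 rose and 2 fell (27.7% and 18.5% of all genes; median 0.40 against 0.04). With PHEN, 24 rose and 1 fell (29.2% and 19.7% of all genes; median 0.47 against 0.05). Calls are at an adjusted p under 0.05 from limma, fitted to log2(intensity + 1) over all arrays. Rises of at least 2-fold were few: 3 members with E9591 (4.29% of all genes), 6 with LMT (8.8%), 3 with BIPR (3.15%) and 4 with PHEN (3.44%).

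These splits depend on how the arrays are scaled. Quantile normalization moved the median change of all genes by -0.135 for E9591 and -0.132 for LMT, and centring each array on its median moved it by -0.159 and -0.204. Under quantile normalization 12 ATG genes were higher and 2 lower with E9591 (17.4% and 23.4% of all genes), and 11 were higher and 10 lower with LMT (29.4% and 35.1% of all genes). Under centring 17 were higher and 1 lower with E9591 (19.8% and 30% of all genes), and 13 higher and 7 lower with LMT (28% and 39.9%). The chelator splits moved less, to 22 higher and 3 lower with BIPR (22.5% and 25.2% of all genes) and 20 higher and 1 lower with PHEN (22.8% and 26.4%) under quantile normalization. Signs turned for 8 members with E9591 under quantile normalization (ATG3, ATG4, ATG10, ATG12, ATG14, ATG16, ATG17 and ATG23) and for 8 with LMT (ATG7, ATG8, ATG15, ATG18, ATG19, ATG23, ATG26 and ATG29). Calls that hold under all 3 scalings were counted for the members only, without a matching share of all genes. Members called higher under all 3 scalings numbered 12 for E9591, 11 for LMT, 21 for BIPR and 19 for PHEN. For E9591 these were ATG1, ATG2, ATG7, ATG11, ATG13, ATG19, ATG31, ATG32, ATG36, ATG38, ATG39 and ATG41. For LMT they were ATG1, ATG2, ATG4, ATG11, ATG13, ATG31, ATG32, ATG36, ATG38, ATG39 and ATG41. Without replicate C of the chelators' DMSO group, 19 rose and 2 fell with BIPR, and 19 rose and 1 fell with PHEN.

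The members not called were ATG3, ATG5, ATG8, ATG10, ATG12, ATG15, ATG16, ATG17, ATG23, ATG27 and ATG33 with E9591. With LMT they were ATG3, ATG7, ATG8, ATG9, ATG14, ATG16, ATG17, ATG20, ATG21, ATG23, ATG26, ATG27, ATG29, ATG33 and ATG34. With BIPR they were ATG10, ATG13, ATG14, ATG16, ATG17, ATG18, ATG20 and ATG33, and with PHEN ATG10, ATG12, ATG13, ATG15, ATG16, ATG17, ATG18, ATG21 and ATG33. ATG16, ATG17 and ATG33 were called in none of the 4.

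**Figure D1:**
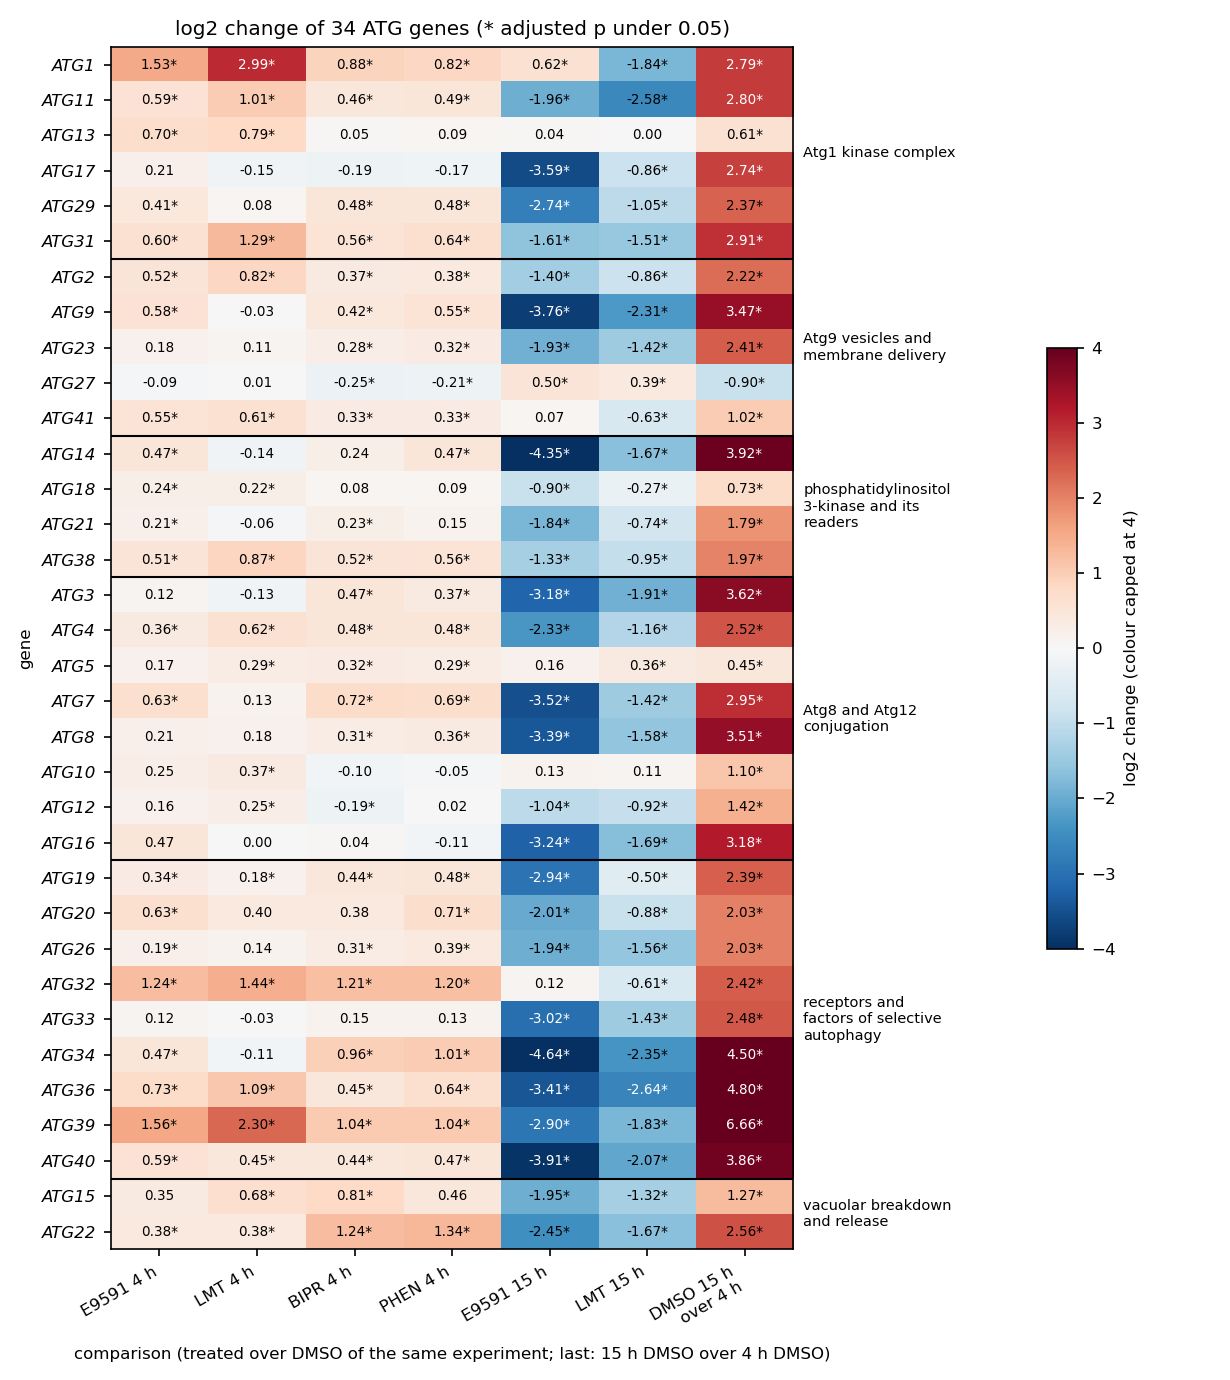
Heat map of the log2 change of each of the 34 ATG genes (rows, grouped by role) in 7 comparisons (columns): each treatment over the DMSO cultures of its own experiment, and 15 h DMSO over 4 h DMSO. Red is higher and blue lower, the number is the log2 change, and a star marks an adjusted p under 0.05 (limma). The columns at 4 h are mostly pale red, those of E9591 and LMT at 15 h mostly blue, and that of DMSO at 15 h is red for every gene but ATG27. Under quantile normalization 8 genes with E9591 and 8 with LMT at 4 h have the opposite sign, called or not, and under centring 2 and 7. With the chelators it is 2 for each compound under either scaling, at 15 h at most 2, and in DMSO at 15 h 0.

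In the Atg1 kinase complex, the gene of the kinase itself, ATG1, had the largest change of any member with LMT at 4 h. Its intensity was 1985, 2140 and 1776 with LMT, against 257, 229 and 251 in DMSO, a log2 change of 2.99 ± 0.12 (SE, adjusted p 6.43e-16). With E9591 it was 844, 967 and 969, against 303, 326 and 329 in DMSO, a log2 change of 1.53 ± 0.12. With BIPR it was 678, 705 and 624 and with PHEN 644, 744 and 558, against 409, 413 and 284 in their DMSO group, changes of 0.88 and 0.82. In all 4 treatments every treated array lay above every DMSO array. ATG13, which encodes the regulatory subunit that binds Atg1, split by compound. It measured 971, 866 and 868 with E9591 against 500, 593 and 576 in DMSO (log2 change 0.70), and 778, 804 and 760 with LMT against 470, 431 and 448 (0.79). Its values with the chelators, 594, 626 and 554 for BIPR and 632, 646 and 557 for PHEN against 582, 599 and 535 in DMSO, overlapped (0.05 and 0.09, neither called). ATG31, a subunit of the scaffold that organises bulk autophagy, rose in each treatment, by 0.60 with E9591, 1.29 with LMT, 0.56 with BIPR and 0.64 with PHEN. ATG11, the scaffold of selective autophagy, likewise rose by 0.59, 1.01, 0.46 and 0.49 in the same order. Its scaffold counterpart ATG17 was not called in any of the 4, with changes between -0.19 and 0.21. It was called lower with LMT under quantile normalization (-0.60) and centring (-0.35), and with BIPR under quantile normalization (-0.35).

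Among genes that supply membrane, ATG9, the transmembrane protein of the vesicles that seed the autophagosome, differed between LMT and the other compounds. It measured 290, 267 and 291 with E9591 against 179, 184 and 205 in DMSO, a log2 change of 0.58 ± 0.11 (adjusted p 0.000179) that was 0.12 and not called under quantile normalization. With LMT it measured 177, 153 and 144 against 137, 160 and 191, and the groups overlapped (-0.03, adjusted p 0.797), but it was called lower under quantile normalization (-0.48). With BIPR it was 284, 396 and 299 and with PHEN 333, 380 and 353, against 242, 254 and 229 in DMSO, so both groups lay above DMSO (0.42 and 0.55). ATG41, which acts in the movement of Atg9, measured 13743, 12683 and 13608 with LMT against 9541, 8935 and 7881 in DMSO (0.61). It rose by 0.55 with E9591 and 0.33 with each chelator, and no treated array overlapped its DMSO group. ATG2, a lipid-transfer protein at the growing membrane, rose by 0.52 with E9591, 0.82 with LMT, 0.37 with BIPR and 0.38 with PHEN. ATG27, a membrane protein that helps move Atg9, fell with each chelator: it measured 2307, 2365 and 2634 with BIPR and 2511, 2512 and 2488 with PHEN, against 3082, 2948 and 2677 in DMSO (-0.25, adjusted p 0.00106, and -0.21, adjusted p 0.00467). No chelator array reached the lowest DMSO array. With E9591 and LMT its changes were -0.09 and 0.01, not called.

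The phosphatidylinositol 3-kinase that marks the membrane for autophagy contains Atg14 and Atg38, and Atg18 and Atg21 read its product. ATG14 measured 130, 110 and 139 with E9591 against 94.0, 97.7 and 80.7 in DMSO, a log2 change of 0.47 ± 0.12 (adjusted p 0.00241) that was -0.11 under quantile normalization. With LMT it measured 98.6, 74.0 and 80.7 against 103, 85.1 and 90.4, which overlapped (-0.14, not called), but it was called lower under quantile normalization (-0.75) and centring (-0.34). With PHEN it rose by 0.47 to 162, 167 and 142 (0.27 and not called under quantile normalization), and with BIPR it was 141, 123 and 135 (0.24, not called), against 118, 113 and 108 in DMSO. ATG38 rose in each treatment, by 0.51 with E9591, 0.87 with LMT, 0.52 with BIPR and 0.56 with PHEN. ATG18 rose by 0.24 with E9591 and by 0.22 with LMT (-0.01 for LMT under quantile normalization, and 0.15 and not called without DMSO replicate B), and was not called with either chelator (0.08 and 0.09). The E9591 call was lost under quantile normalization (0.01) and centring (0.08), and the LMT call under centring (0.01).

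The conjugation genes, which attach Atg8 and Atg12, had median log2 changes of 0.23 with E9591, 0.22 with LMT and 0.32 with each chelator. Under quantile normalization the medians were -0.07 with E9591 and 0.00 with LMT, and under centring 0.07 and 0.01. ATG8, which encodes the ubiquitin-like protein that is fixed to the autophagosome membrane, measured 1292, 1399 and 1483 with E9591 against 1172, 1145 and 1293 in DMSO, and 1331, 1197 and 1110 with LMT against 1007, 946 and 1266. Both pairs of groups overlapped (0.21 and 0.18, adjusted p 0.119 and 0.135). With BIPR it was 1259, 1375 and 1151 and with PHEN 1326, 1399 and 1181, against 1126, 1044 and 881 in DMSO, rises of 0.31 and 0.36 in which every chelator array exceeded every DMSO array. Both calls were lost without replicate C of that DMSO group (0.21 and 0.26), and that with BIPR also without BIPR replicate B (0.25). Of the 8 conjugation genes, 2 rose with E9591, 4 with LMT, 5 with BIPR and 5 with PHEN, where 32%, 40.4%, 27.7% and 29.2% of all genes rose. Under quantile normalization 1 was higher with E9591 (17.4% of all genes), and 1 higher and 3 lower with LMT (29.4% and 35.1%). ATG7, the activating enzyme of both conjugation systems, rose by 0.63 with E9591, 0.72 with BIPR and 0.69 with PHEN. With LMT it measured 167, 188 and 158 against 129, 158 and 184 in DMSO, an overlap (0.13, adjusted p 0.305), and that DMSO group was the lowest of the 3 for this gene. ATG4, the protease that prepares and recycles Atg8, rose in each treatment, by 0.36 with E9591 (-0.02 under quantile normalization), 0.62 with LMT and 0.48 with each chelator. The E9591 call for ATG4 was lost without E9591 replicate C (0.21) or DMSO replicate A (0.32). ATG12 was called lower with BIPR (-0.19, adjusted p 0.0483) with overlapping arrays, and lost that call without DMSO replicate A (-0.13) or B (-0.16) or BIPR replicate A (-0.17) or B (-0.14).

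Of the 9 receptors and factors of selective autophagy, 8 rose with E9591, 5 with LMT, 7 with BIPR and 8 with PHEN, where 32%, 40.4%, 27.7% and 29.2% of all genes rose. Under quantile normalization 4 were higher with E9591 (17.4% of all genes), and 3 higher and 2 lower with LMT (29.4% and 35.1%). ATG32, the receptor for mitochondria, measured 708, 714 and 669 with E9591 against 305, 298 and 278 in DMSO, a log2 change of 1.24 ± 0.07 (adjusted p 4.8e-13). With LMT it measured 988, 1002 and 981 against 356, 366 and 368 (1.44). With BIPR it was 849, 873 and 917 and with PHEN 873, 857 and 893, against 390, 397 and 354 in DMSO (1.21 and 1.20). ATG32 was therefore more than 2-fold higher in each of the 4 treatments, with no overlap. ATG39, the receptor for the nuclear envelope and the endoplasmic reticulum around it, measured 228, 279 and 267 with E9591 against 81.2, 89.1 and 89.3 in DMSO (1.56), and 678, 704 and 596 with LMT against 146, 121 and 133 (2.30). With BIPR it was 178, 226 and 180 and with PHEN 207, 209 and 166, against 112, 111 and 65.6 in DMSO (1.04 each). No treated group overlapped its DMSO group. ATG36, the receptor for peroxisomes, rose by 0.73 with E9591, 1.09 with LMT, 0.45 with BIPR and 0.64 with PHEN. ATG34, a receptor of the vacuolar enzyme alpha-mannosidase, rose with BIPR (743, 660 and 712) and PHEN (702, 777 and 707), against 412, 376 and 304 in DMSO (0.96 and 1.01). With E9591 it rose by 0.47, and with LMT it measured 294, 233 and 243 against 259, 238 and 341, which overlapped (-0.11, not called, but -0.39 and called lower under quantile normalization and -0.32 under centring). The E9591 call was lost under quantile normalization (0.21). Its relative ATG19, the receptor of the cytoplasm-to-vacuole route, rose by 0.34 with E9591, 0.18 with LMT, 0.44 with BIPR and 0.48 with PHEN, and the LMT value was -0.03 under quantile normalization and -0.02 under centring. The LMT call for ATG19 was also lost without DMSO replicate A (0.14) or B (0.19) or LMT replicate A (0.12) or B (0.19). ATG33, a mitochondrial protein needed for mitophagy, was called in none of the 4.

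Of the 2 members that act inside or at the vacuole, ATG22 had called differences between compounds at 4 h and ATG15 had none. ATG22, which exports amino acids released by breakdown, had the largest change of any member with the chelators. It measured 1618, 1714 and 1813 with BIPR and 1864, 1780 and 1862 with PHEN, against 851, 801 and 562 in DMSO, log2 changes of 1.24 ± 0.10 and 1.34 ± 0.10 with no overlap. With E9591 it measured 910, 829 and 899 against 681, 675 and 665, a change of 0.38. With LMT it measured 930, 964 and 891 against 637, 702 and 808, also 0.38. The E9591 change was 0.19 and not called under quantile normalization. The LMT change was 0.17 to 0.18 and not called under quantile normalization and centring. ATG15, the lipase that opens autophagic bodies, rose with BIPR (0.81) and with LMT (0.68), and was not called with E9591 (0.35) or PHEN (0.46). The LMT value rests on a DMSO group of 36.4, 75.8 and 89.5, against 109, 100 and 94.0 with LMT, whereas the other 4 h DMSO arrays lay at 325 to 466; it was -0.05 under quantile normalization, and 0.29 and not called without DMSO replicate A.

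**Figure D2:**
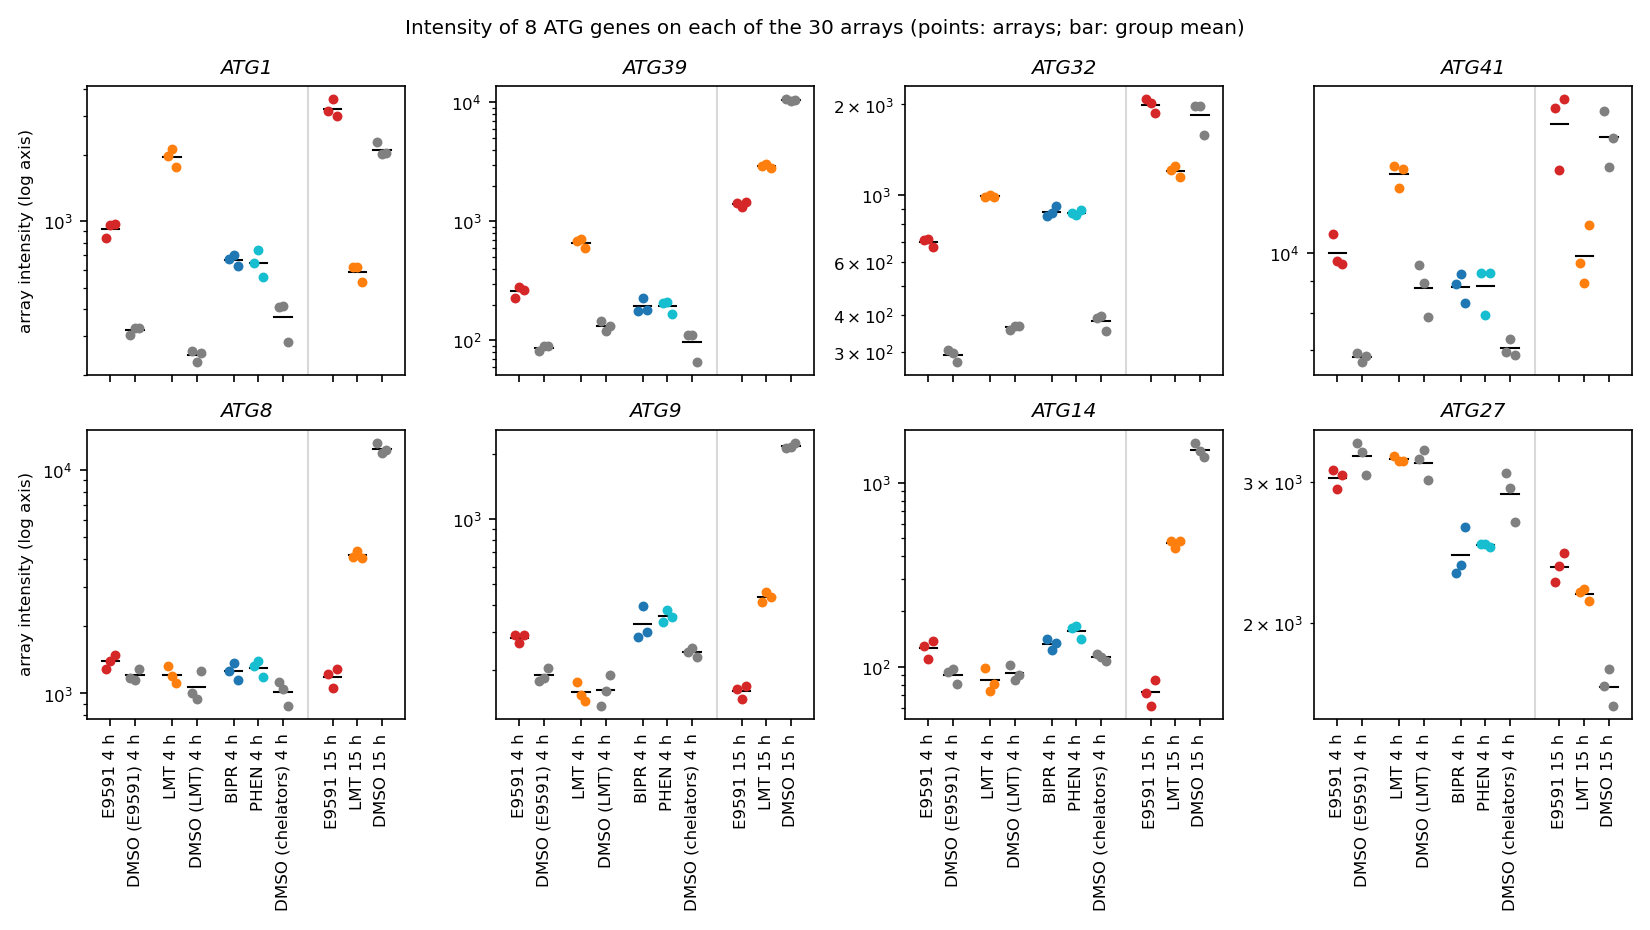
Intensity (log axis) of ATG1, ATG39, ATG32, ATG41, ATG8, ATG9, ATG14 and ATG27 on each of the 30 arrays. Each point is 1 culture, each bar the mean of a group of 3, groups run along the x axis with the DMSO group in grey at the right of its treatments, and a vertical line parts 4 h from 15 h. ATG1, ATG39, ATG32 and ATG41 lie above DMSO in every 4 h treatment. ATG8 lies at 1056 to 1291 with E9591, 4041 to 4345 with LMT and 11895 to 13230 in DMSO at 15 h.

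The size of the response was compared between compounds as a difference of log2 changes, each taken over its own DMSO group, at doses that differ in µM but are each an IC50. PHEN and BIPR gave no called difference in any of the 34 members, where 0% of all genes were called by limma; 2 members had an unadjusted p under 0.05. The median difference was 0.03, and the 95% intervals of all 34 lay between -0.76 and 0.82, so each excluded a 2-fold difference. That bound does not show that the chelators act alike on these genes.

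Between LMT and E9591 at 4 h, 6 members responded more to LMT and 5 less, where 26% of all genes were called, 12.4% more and 13.5% less. ATG1 differed by 1.46 ± 0.17 (95% interval 1.11 to 1.81, adjusted p 8.93e-07), ATG39 by 0.74 ± 0.20 and ATG31 by 0.70 ± 0.11, all larger with LMT. ATG9 (-0.61), ATG14 (-0.61) and ATG34 (-0.58) responded less to LMT. Leaving out replicate C of LMT's DMSO group gave 6 and 2, with ATG34 no longer called (-0.43), and leaving out LMT replicate C gave 6 and 3. ATG8 showed no called difference (-0.03, interval -0.34 to 0.29).

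Set against the mean of both chelators, E9591 differed in 5 members, 3 larger and 2 smaller, where 28.9% of all genes were called, 18.9% larger and 10% smaller. ATG1 (0.68), ATG13 (0.63) and ATG39 (0.52) were larger with E9591, and ATG22 (-0.90) and ATG34 (-0.52) smaller. Without E9591 replicate B 2 were larger and 1 smaller, and without replicate C of the chelators' DMSO group 6 and 1. Under quantile normalization 4 were larger and 5 smaller (15.7% and 15.6% of all genes). The call of ATG39 was lost under quantile normalization (0.22) and in 10 of the omissions of 1 culture, and that of ATG34 without either of the cultures just named. LMT differed from the chelators in 18 members, 10 larger and 8 smaller, where 50.8% of all genes were called, 29.6% larger and 21.2% smaller. Under quantile normalization 9 were larger and 13 smaller (25.5% and 27.1% of all genes), and under centring 8 and 12 (22.5% and 29%). ATG1 (2.14), ATG39 (1.26) and ATG13 (0.72) were larger with LMT, and ATG34 (-1.10), ATG22 (-0.91) and ATG7 (-0.58) smaller. ATG32 differed by 0.24 between LMT and the chelators (adjusted p 0.03; 0.09 and not called under quantile normalization, and lost without LMT replicate B, replicate A of LMT's DMSO group or replicate A or B of the chelators' DMSO group), and was not called for E9591 against the chelators (0.04) or LMT against E9591 (0.20). A difference between compounds of different experiments also carries any difference between their DMSO groups, as for ATG7.

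In DMSO alone, the 15 h cultures held higher levels of nearly all ATG genes than the 4 h cultures. Of the 34 members 33 rose and 1 fell, where 48.3% of all genes rose and 42.6% fell, and the median log2 change was 2.45 against 0.12 over all tested genes. At least 2-fold rises numbered 30 of 34, against 27.4% of all genes. The 9 DMSO arrays of 4 h come from other experiments than the 3 of 15 h, so time and experiment cannot be told apart.

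The 3 largest rises were in receptor genes. ATG39 measured 10635, 10323 and 10372 at 15 h, against 65.6 to 146 over the 4 h DMSO arrays, a log2 change of 6.66 ± 0.12, about 101-fold. ATG36 measured 9186, 8763 and 8788 at 15 h against 260 to 421 at 4 h (4.80), and ATG34 7455, 7683 and 8127 against 238 to 416 (4.50). All 9 receptors and selective factors rose (48.3% of all genes did), including ATG32 (2.42), ATG19 (2.39) and ATG40, the receptor for the endoplasmic reticulum (3.86). In the core machinery ATG14 measured 1647, 1486 and 1372 at 15 h against 80.7 to 118 at 4 h (3.92), and ATG8 13230, 11895 and 12253 against 881 to 1293 (3.51). ATG9 rose by 3.47, ATG1 by 2.79 and the conjugating enzyme gene ATG3 by 3.62. The smallest rises were in ATG5 (0.45), which encodes the target of Atg12, ATG13 (0.61), ATG18 (0.73) and ATG41 (1.02). ATG27 alone fell, at 1666, 1748 and 1573 against 2677 to 3364 (-0.90, adjusted p 3.89e-15). Every member's 15 h DMSO arrays lay wholly above or, for ATG27, wholly below all 9 of 4 h. The share of all tested genes that separate in this way was not counted.

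At 15 h the treated cultures stood the other way to their DMSO controls. With E9591, 2 members were higher and 27 lower, where 45.7% of all genes were higher and 42.2% lower, and the median log2 change was -1.98 against 0.05. With LMT, 2 were higher and 30 lower, where 41.9% of all genes were higher and 41.9% lower, and the median was -1.37 against -0.01. Falls of at least 2-fold numbered 26 with E9591 (23.2% of all genes) and 20 with LMT (14.9%). Both comparisons use the same 3 DMSO arrays, so their values are given side by side and their likeness is not counted as a result.

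With E9591 the largest falls were in ATG34, ATG14, ATG40 and ATG9. ATG34 measured 304, 270 and 361 with E9591 against 7455, 7683 and 8127 in DMSO, a log2 change of -4.64 ± 0.12 (adjusted p 4.38e-21). ATG14 measured 72.5, 61.5 and 85.4 against 1647, 1486 and 1372 (-4.35). ATG40 measured 273, 258 and 350 against 4288, 4140 and 4735 (-3.91), and ATG9 163, 148 and 169 against 2126, 2146 and 2244 (-3.76). No E9591 array of these genes came near the DMSO range. ATG8 fell to 1224, 1056 and 1291, against 13230, 11895 and 12253 in DMSO (-3.39). ATG19 (-2.94), ATG39 (-2.90) and the scaffold gene ATG17 (-3.59) fell too.

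A few members did not follow with E9591. ATG1 was higher, at 3164, 3597 and 3002 against 2294, 2021 and 2047 in DMSO (0.62 ± 0.12, adjusted p 4.65e-05), and ATG27 was higher at 2247, 2354 and 2445 against 1666, 1748 and 1573 (0.50). ATG32 was not called (2083, 2030 and 1880 against 1984, 1976 and 1588; 0.12, and 0.17 and called without DMSO replicate A or B), nor was ATG41 (17020, 13568 and 17598 against 16863, 13718 and 15265; 0.07). ATG13 (0.04), ATG5 (0.16) and the conjugating enzyme gene ATG10 (0.13) were not called either. By role, 4 of 6 genes of the kinase complex and 3 of 5 of Atg9 and membrane delivery fell with E9591. So did 4 of 4 of the lipid kinase and its readers and 6 of 8 of conjugation. Also lower were 8 of 9 receptors and factors and both vacuolar genes. Of all tested genes 42.2% were lower, and no test was made per role.

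With LMT at 15 h the largest falls were in ATG36, ATG11, ATG34 and ATG9. ATG36 measured 1397, 1489 and 1411 with LMT against 9186, 8763 and 8788 in DMSO (-2.64 ± 0.07, adjusted p 2.82e-20). ATG11 measured 664, 638 and 633 against 3829, 3735 and 4007 (-2.58), and ATG34 1485, 1445 and 1625 against 7455, 7683 and 8127 (-2.35). ATG9 fell to 413, 459 and 437, against 2126, 2146 and 2244 in DMSO (-2.31). ATG1 fell as well, to 621, 623 and 530 against 2294, 2021 and 2047 (-1.84), with no overlap. ATG8 (-1.58), ATG14 (-1.67), ATG41 (-0.63), ATG32 (-0.61) and ATG19 (-0.50) fell too. ATG27 (0.39) and ATG5 (0.36) were higher with LMT, and ATG13 (792, 791 and 810 against 862, 783 and 758; 0.00) and ATG10 (0.11) were not called.

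The direct comparison of LMT with E9591 at 15 h called 28 of the 34 members, where 78.1% of all genes were called: 24 were higher with LMT and 4 lower, against 39.5% and 38.6% of all genes. ATG17 measured 524, 611 and 438 with LMT against 68.5, 72.4 and 92.7 with E9591 (2.73 ± 0.15), ATG14 485, 444 and 483 against 72.5, 61.5 and 85.4 (2.68), and ATG19 3558, 3517 and 3343 against 648, 579 and 682 (2.45). ATG8 was 3.50-fold higher with LMT (1.81, adjusted p 1.39e-13). The genes that were lower with LMT were ATG1 (-2.46 ± 0.12, adjusted p 4.32e-15), ATG32 (-0.73), ATG41 (-0.70) and ATG11. The response of ATG1 was thus larger with LMT than with E9591 at 4 h and lower with LMT at 15 h.

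**Figure D3:**
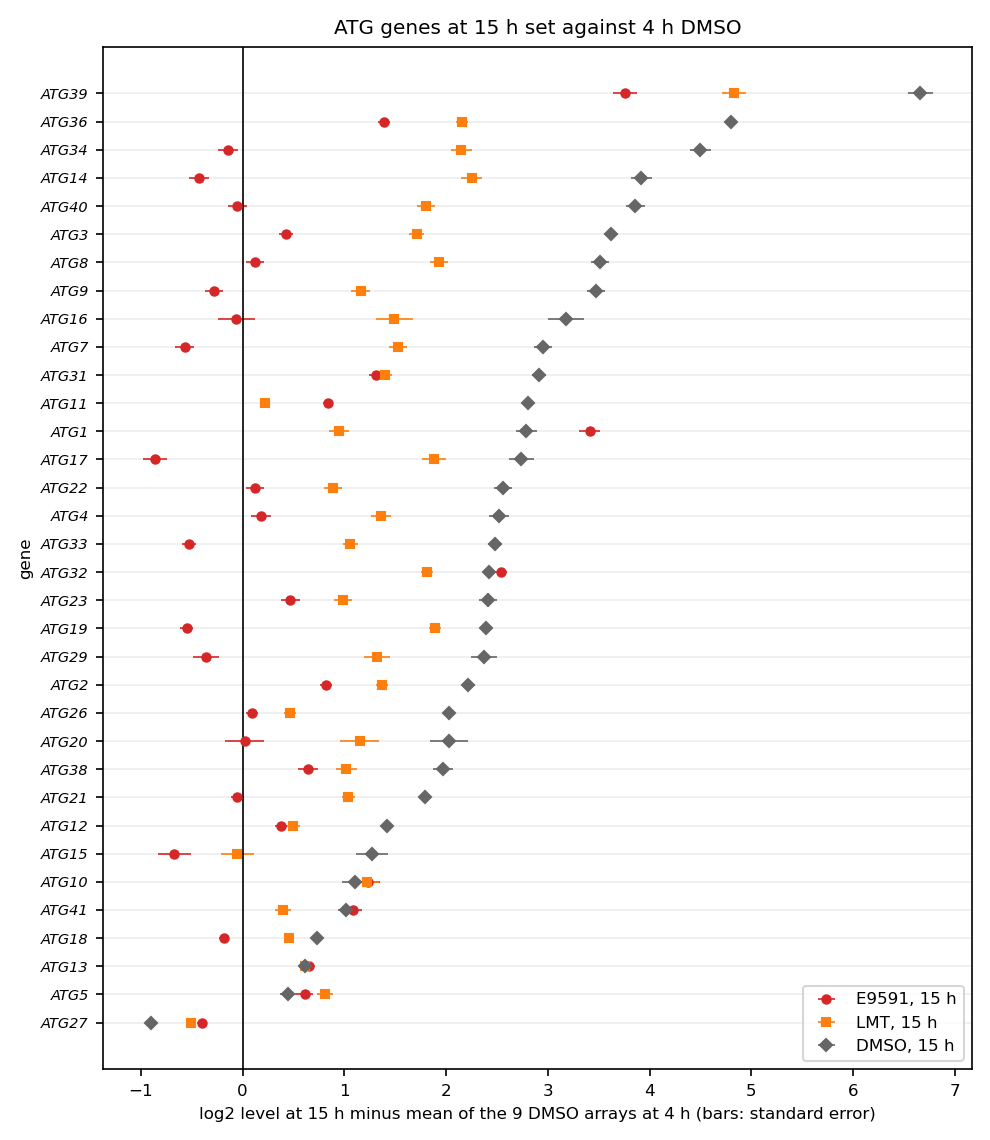
Level of each of the 34 ATG genes (rows) at 15 h, as the log2 difference from the mean of the 9 DMSO arrays of 4 h (x axis; bars are standard errors; 0 is the 4 h DMSO level). Red circles are E9591, orange squares LMT and grey diamonds DMSO, each from 3 arrays. For most genes the DMSO point lies farthest right, the LMT point lies between it and 0, and the E9591 point lies near 0; ATG1 with E9591 lies to the right of DMSO at 3.41.

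Set against the 4 h DMSO level, a comparison added after the data were seen, the 2 treatments at 15 h were placed differently. With LMT 32 members were higher and 1 lower than in the 4 h DMSO arrays, where 46.2% of all genes were higher and 34.3% lower, and the median difference was 1.19, against 0.10 over all tested genes. ATG27 was the one that was lower (-0.51) and ATG15 the one not called. With E9591 15 were higher and 10 lower, where 46.1% of all genes were higher and 33.6% lower, and the median was 0.12, against 0.10 over all tested genes. Under quantile normalization 15 were higher and 15 lower (37.9% and 42.4% of all genes, median -0.120), and under centring 15 and 14 (34.9% and 47.1%, median -0.109). ATG8 with E9591 at 15 h (1224, 1056 and 1291) overlapped the 4 h DMSO arrays (881 to 1293; 0.12, adjusted p 0.201), whereas ATG8 with LMT (4099, 4345 and 4041) lay above them (1.93). Of the members lower than in 15 h DMSO, 29 with LMT and 9 with E9591 were still higher than in 4 h DMSO. Both counts use the treated arrays in each comparison, and the matching share of all genes was not counted. The 9 with E9591 were ATG2, ATG3, ATG11, ATG12, ATG23, ATG31, ATG36, ATG38 and ATG39. ATG1 with E9591 was 10.6-fold above the 4 h DMSO level (3.41).

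The effect of a compound at 15 h differed from its effect at 4 h in 32 members for E9591, where 84.6% of all genes were called, and in 32 for LMT, where 82.8% were called. For each compound 31 of the called differences were negative (44.9% of all genes for E9591 and 44.7% for LMT) and that of ATG27 was positive (0.59 for E9591 and 0.37 for LMT; 39.7% and 38.1% of all genes). The largest for E9591 were ATG34 (-5.11 ± 0.17), ATG14 (-4.82) and ATG40 (-4.50), and for LMT ATG1 (-4.84 ± 0.17), ATG39 (-4.13) and ATG36 (-3.73). ATG5 and ATG10 were called for neither compound.

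The other genes of the pathway were described by lists of known partners, chosen with earlier results of these data in view. Of the 4 genes of the Vps34 lipid kinase complexes, VPS34, the catalytic subunit, rose with E9591 (0.53) and LMT (0.82) at 4 h. VPS30, a subunit of both complexes, rose by 1.74 in DMSO at 15 h over 4 h and fell with E9591 (-1.75) and LMT (-1.22) at 15 h. All 4 genes rose in DMSO at 15 h (median 0.81), where 48.3% of all genes rose (median 0.12). At that time 4 fell with E9591 and 3 with LMT (median -0.82 and -0.65). Of all genes 42.2% and 41.9% fell (median 0.05 and -0.01). Under quantile normalization the median of this list at 4 h was 0.00 with both E9591 and LMT.

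Single genes of the cargo and protease lists moved further than those of the Vps34 list. Of the 7 cargo and sorting genes, 3 rose with E9591, 3 with LMT, 6 with BIPR and 5 with PHEN at 4 h. The shares of all genes were 32%, 40.4%, 27.7% and 29.2%. With LMT 2 fell, and with each chelator 1 (25.2%, 18.5% and 19.7% of all genes). The LMT median was 0.19, and -0.01 under quantile normalization. In DMSO at 15 h 6 rose (48.3%), and 6 fell with each compound then (42.2% with E9591 and 41.9% with LMT). Among the 7 genes of selective cargo and sorting, AMS1, which encodes the cargo enzyme alpha-mannosidase, rose by 0.66 with E9591, 1.19 with LMT, 1.98 with BIPR and 2.00 with PHEN at 4 h. It rose by 5.03 in DMSO at 15 h over 4 h, and at 15 h fell with E9591 (-4.49) and LMT (-1.50). APE1, the aminopeptidase cargo of the cytoplasm-to-vacuole route, rose by 0.98, 1.38, 1.36 and 1.44 with E9591, LMT, BIPR and PHEN at 4 h and, unlike AMS1, was also higher with E9591 (0.64) and LMT (1.19) at 15 h. The sorting nexin gene SNX41 rose with E9591 (1.06) and LMT (1.96) at 4 h, and SNX4 rose with BIPR (0.59) and in DMSO at 15 h (2.65). Of the 6 vacuolar proteases, PRB1, a serine protease that breaks down autophagic bodies, rose by 0.85, 1.48, 1.47 and 1.40 in the same order at 4 h and by 2.86 in DMSO at 15 h. At 15 h it fell with E9591 (-1.23) and LMT (-0.69). Of the 6 proteases 3 rose with E9591, 3 with LMT and 5 with each chelator at 4 h. The shares of all genes were 32%, 40.4%, 27.7% and 29.2%. In DMSO at 15 h all 6 rose (48.3%). At that time 4 fell with each compound (42.2% of all genes with E9591 and 41.9% with LMT).

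The 15 tethering and fusion genes, which join autophagosomes to the vacuole, stayed near the level of all genes in their median, except in 1 setting. It was 0.03 in DMSO at 15 h over 4 h (6 rose and 6 fell, and -0.10 under centring). At 15 h it was -0.05 with E9591 and -0.13 with LMT. Under quantile normalization the LMT median at 15 h was -0.38, against -0.14 over all genes. In that setting 3 of the list were higher and 11 lower (38.8% and 47.9% of all genes). The ends of the list were VAM3, a fusion protein that rose by 1.38 in DMSO at 15 h, and PEP5, a tethering subunit that fell by 1.55 on the log2 scale. Of the 16 genes of TORC1 and nutrient signalling, 9 rose with E9591, 11 with LMT, 7 with BIPR and 8 with PHEN at 4 h, where 32%, 40.4%, 27.7% and 29.2% of all genes rose, and 1 fell with each chelator. Under quantile normalization 4 were higher and 2 lower with E9591 (17.4% and 23.4% of all genes), and 9 higher and 1 lower with LMT (29.4% and 35.1%). In DMSO at 15 h 15 of the 16 rose and 1 fell (48.3% and 42.6% of all genes). With E9591 at that time 1 was higher and 10 lower (45.7% and 42.2%), and with LMT 1 and 11 (41.9% each). RIM15, a kinase of the starvation programme, rose by 1.78 in DMSO at 15 h and fell by 1.26 on the log2 scale with LMT at that time. Of 12 transcriptional regulators known to act on ATG genes, 6 rose with E9591 and 7 with LMT at 4 h (32% and 40.4% of all genes). With BIPR 8 rose and with PHEN 5 (27.7% and 29.2%), and 1 fell in each treatment but E9591. Under quantile normalization 2 were higher with E9591 and 4 with LMT (17.4% and 29.4%), and 1 lower with each. In DMSO at 15 h 9 rose and 1 fell (48.3% and 42.6%). At that time 4 were higher and 5 lower with E9591 (45.7% and 42.2%). With LMT 1 was higher and 9 lower (41.9% each). GLN3, a GATA activator, rose with E9591 (0.81) and LMT (1.16) at 4 h. The repressors PHO23 and RPH1 rose in DMSO at 15 h (2.16 and 1.52). PHO23 fell by 2.54 on the log2 scale with E9591 at 15 h, and RPH1 fell by 1.30 with LMT. The list's largest rise in DMSO at 15 h (4.96) and its largest fall with E9591 at 15 h (-2.67) were both in DAL80.

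**Figure D4:**
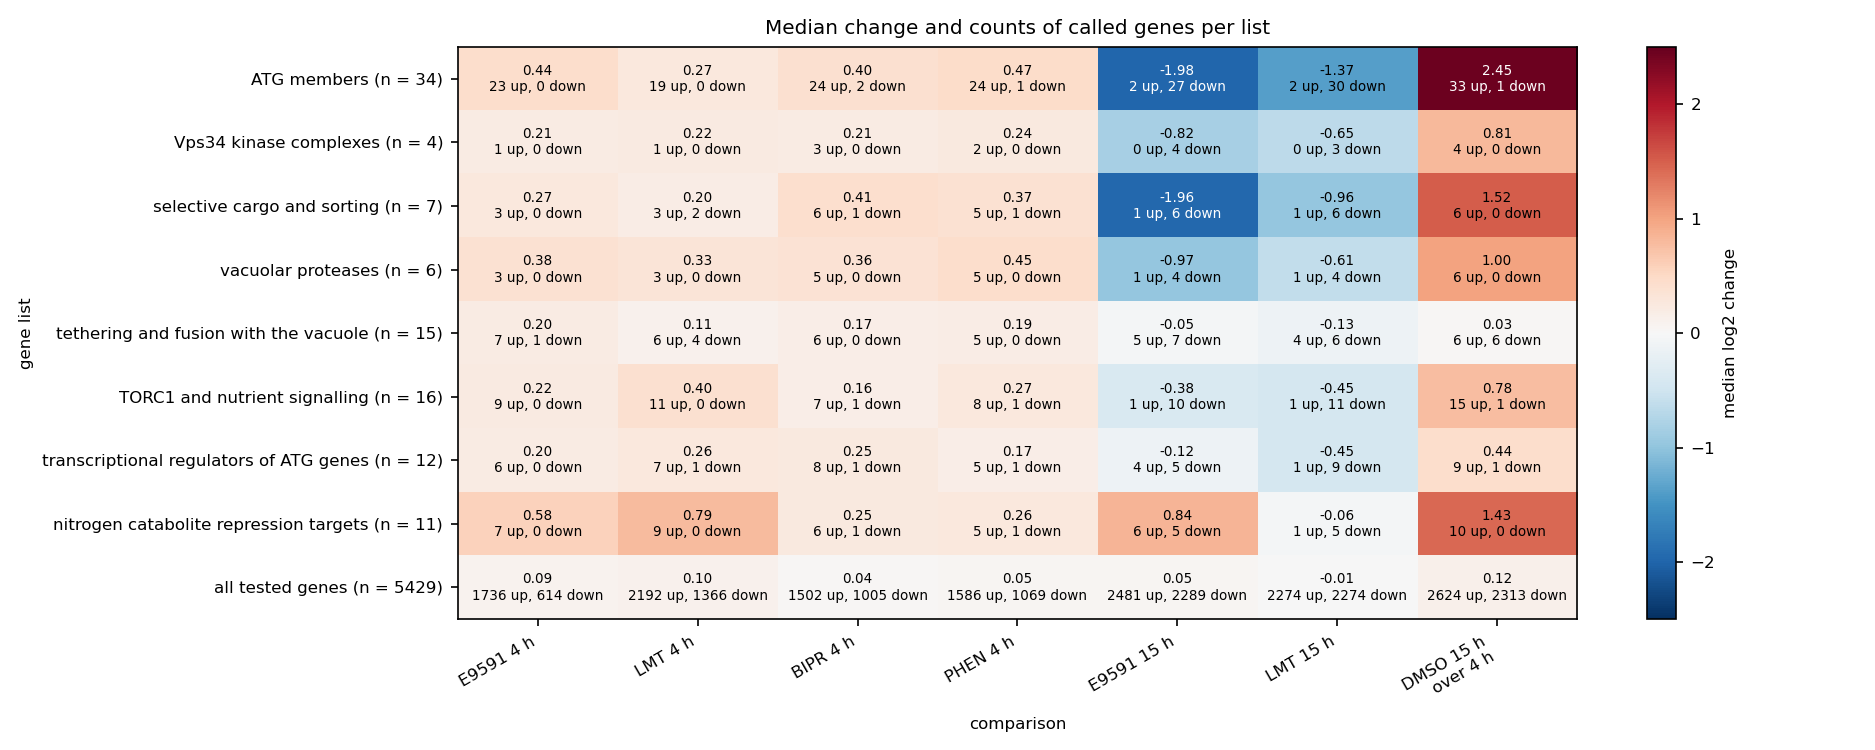
Median log2 change (colour and upper number) and count of genes called higher and lower (lower line) for the ATG genes, 7 lists of pathway genes and all tested genes (rows) in 7 comparisons (columns). In DMSO at 15 h over 4 h the ATG genes have a median of 2.45, against 0.12 for all tested genes and 0.03 for the tethering and fusion genes. At 4 h the medians with LMT of the Vps34, cargo and tethering lists were at or below 0.00 under quantile normalization.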

How the data were processed

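Total RNA of 30 cultures was labelled and hybridised to 1 Affymetrix yeast array each, per the labels' protocols. The authors deposited 1 table of intensity on a linear scale for 10928 probe sets. Its 2% trimmed mean is 1000.4 to 1000.8 on every array, as after scaling to a common target. How probes were summarised, and with what software or background step, is not given in the sources used here. The platform annotation paired 5498 probe sets with 1 S. cerevisiae gene each, covering 5449 genes. Symbols of 12 genes were updated through a gene table of assembly R64, and 3683 probe sets were not named.

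Genes above the floor on 3 or more arrays were tested, leaving out 20. Values were fitted as log2(intensity + 1) with limma 3.58.1 (R 4.3.3), giving each group its own mean in a single fit of the 30 arrays (residual degrees of freedom 20, prior 3.16), with Benjamini-Hochberg adjustment over all 5429 genes. The added 1 slightly understates changes of dim genes. Differences between compounds and times are contrasts of this fit. The fitting code was checked on simulated data. The 3 arrays per group limit the precision.

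The members and lists were chosen with earlier results of these data known. Named for each comparison were the 4 largest rises and falls among called members with no overlap between groups and above the floor, the 3 largest each way for differences, and in every comparison ATG8, ATG1, ATG13, ATG9, ATG14, ATG32, ATG19 and ATG41. Up to 2 genes were named per list and comparison. One gene of the nitrogen list was not matched and is not analysed here.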

Additional observations from a re-analysis of the deposited data

Results flagged for a closer look

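Effects were tested against each other with limma contrasts, and each count of members stands beside the share of all tested genes called. Between 15 h and 4 h, 32 members (94.1%) differed for E9591, where 84.6% of all genes did. They were led by ATG34 (-5.11), ATG14 (-4.82) and ATG40 (-4.50), with ATG27 the other way (0.59). For LMT 32 members (94.1%) differed, where 82.8% of all genes did. They were led by ATG1 (-4.84), ATG39 (-4.13) and ATG36 (-3.73), again with ATG27 the other way (0.37). Each of these differences sets the 15 h experiment against a 4 h experiment, so time and experiment cannot be told apart.

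Between LMT and E9591 at 4 h, 11 members (32.4%) differed, where 26% of all genes did. ATG1 (1.46), ATG39 (0.74) and ATG31 (0.70) were the largest toward LMT, and ATG14 (-0.61), ATG9 (-0.61) and ATG34 (-0.58) toward E9591. At 15 h 28 (82.4%) differed, where 78.1% of all genes did. ATG17 (2.73), ATG14 (2.68) and ATG19 (2.45) were higher with LMT and ATG1 (-2.46), ATG32 (-0.73) and ATG41 (-0.70) lower. Against the mean of the chelators, E9591 differed in 5 members (14.7%), where 28.9% of all genes were called. The 5 were ATG1 (0.68), ATG13 (0.63), ATG39 (0.52), ATG22 (-0.90) and ATG34 (-0.52). LMT differed from the chelators in 18 members (52.9%), where 50.8% of all genes were called. Among these members ATG1 (2.14), ATG39 (1.26) and ATG13 (0.72) were larger and ATG34 (-1.10), ATG22 (-0.91) and ATG7 (-0.58) smaller.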

How the results depend on the processing

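At 15 h against 15 h DMSO, and in DMSO over time, the counts of ATG genes stayed within 1.5 times of those reported under every alternative run. The 3 arrays per group limit what can be said of small changes at 4 h. Quantile normalization gave 12 higher and 2 lower with E9591 at 4 h, and 11 higher and 10 lower with LMT at 4 h. It also gave 9 members that differed between E9591 and the chelators. Of these 4 were larger and 5 smaller, where 15.7% and 15.6% of all genes were. With LMT at 15 h it gave 2 members lower than in 4 h DMSO (45.8% of all genes). Centring gave 1 lower with E9591 and 7 lower with LMT at 4 h, and array weights gave 1 lower with E9591. BIPR had 1 lower with a pseudocount of 16, with a trended prior, with the replicate block and with its own experiment's arrays alone, and PHEN had 0 lower with its own experiment's arrays alone. The cause was not tested.

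Among members called in either setting, signs turned under quantile normalization for ATG14 (-0.11), ATG17 (-0.34), ATG23 (-0.33) and ATG4 (-0.02) with E9591 at 4 h, for ATG7 (-0.31), ATG18 (-0.01), ATG29 (-0.30), ATG15 (-0.05) and ATG19 (-0.03) with LMT at 4 h, and for ATG10 (-0.38) with LMT at 15 h. Under centring they turned likewise for ATG19 (-0.02) and ATG27 (-0.19) with LMT at 4 h.

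Leaving out 1 culture at a time gave 18 to 24 higher with E9591, 16 to 19 with LMT, 19 to 24 with BIPR and 19 to 25 with PHEN at 4 h, and 1 to 2 lower with BIPR. At 15 h it gave 2 to 3 higher and 27 lower with E9591. Between E9591 and the chelators 3 to 7 members differed, 3 of them without E9591 replicate B. The reported fit did not pair cultures by replicate letter. Of 24 same-letter pairs, 7 correlated above 0.1 in their deviations, over a range of -0.091 to 0.333. The highest were E9591 with LMT at 15 h, replicates C (0.333) and B (0.244), where B with C gave -0.329 and C with B -0.22. Whether the letters mark paired cultures was not tested. With the replicate block the counts at 4 h were 23 higher with E9591, 18 with LMT, 24 with BIPR and 23 with PHEN.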

Other observations

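Genes under nitrogen catabolite repression, which encode uptake and breakdown of poor nitrogen sources, also moved. Of the 11 such genes measured, 7 rose with E9591, 9 with LMT, 6 with BIPR and 5 with PHEN at 4 h, where 32%, 40.4%, 27.7% and 29.2% of all genes rose, and 1 fell with each chelator. Under quantile normalization 5, 6, 3 and 3 were higher in the same order, where 17.4%, 29.4%, 22.5% and 22.8% of all genes were. In DMSO at 15 h over 4 h 10 rose, where 48.3% of all genes did. DUR3, a urea transporter, rose by 2.42 with E9591 and 2.90 with LMT at 4 h and was higher with E9591 at 15 h (3.58). PUT4, a proline transporter, rose by 5.76 in DMSO at 15 h and fell with E9591 (-4.64) and LMT (-2.88) at that time. At 15 h 6 genes of the list were higher and 5 lower with E9591, where 45.7% and 42.2% of all genes were. With LMT at that time 1 was higher and 5 lower, where 41.9% and 41.9% of all genes were.

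Over all 30 arrays the members differed in how far their own level ranged. ATG39 spanned 162-fold between its lowest and highest array, ATG36 35.3-fold, ATG34 34.9-fold and ATG14 26.8-fold, whereas ATG27 spanned 2.14-fold.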
